A study of Mus musculus with 6 samples.

Results

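The genes described here are Spi1, Gata1, Myb, Myc and Mycn, which encode transcription factors of blood cell formation and growth. They were chosen by name from the authors' list of ac4C summits, after their folds and regions in that list had been seen. All 5 had at least 1 listed summit, and together they held 6 of the 1876 summits and made up 5 of the 1485 genes in the list. N4-acetylcytidine (ac4C) is an acetylated form of cytidine in RNA, and in acRIP-seq RNA fragments captured by an antibody against it are sequenced. The RNA was poly(A) RNA of wild-type 32D cells, a mouse bone marrow line labelled as lymphoblastocytes and grown with interleukin 3 at 10 ng/mL. The 6 libraries were 2 pulled down with the ac4C antibody, 2 with control IgG and 2 of input RNA without antibody, all from the same line with no treatment or gene alteration in the labels. The entries of the list are named as 1 call on merged pull-down libraries, which leaves every value without a replicate error.

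Spi1 encodes PU.1, an ETS factor that drives myeloid and B lymphoid fates. Gata1 encodes a zinc finger factor needed for red cells, platelets, mast cells and eosinophils. PU.1 and GATA1 bind each other and oppose each other's targets at the split between myeloid and erythroid fates. Myb encodes a factor that keeps blood progenitors dividing and immature, and it falls in most lineages as cells mature. Myc and Mycn are paralogs whose proteins pair with MAX on E-box DNA and raise genes of growth and the cell cycle. The mRNAs of Myc and Mycn are short-lived, and sequences in 3' untranslated regions are known to contribute to such rapid decay.

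Each summit came with a fold enrichment, the authors' peak caller's ratio of the pile of overlapping fragments to its background. Folds in the list were whole steps of 0.475, which corresponds to 1 background of 1.11 fragments for every summit, so the number of fragments at each summit could be read back. The fold therefore holds no term for how much of a transcript was present. Heights of different mRNAs can differ through abundance as well as through pull-down, and these cannot be told apart here. For the same reason, a summit in the list is not on its own evidence of ac4C. The intervals below are exact Poisson 95% intervals of the fragment number, turned into folds, and cover counting error only.

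Spi1 had the tallest summit of the 5 genes. Its summit lay at nt 1851 of transcript ENSMUST00000002180 (gene ENSMUSG00000002111), in the 3' untranslated region, with 112 fragments and a fold of 53.6 (44.2 to 64.4). It ranked 64 of 1876 summits and 28 of 843 in 3' untranslated regions. As a gene, Spi1 ranked 61 of 1485 by highest fold. The nearest genes in that order were Sephs2 above it, at 54.1 in coding sequence, and Cdca8 below it, at the same fold of 53.6 in the 3' untranslated region.

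Myb followed closely. Its summit lay at nt 3482 of ENSMUST00000188495 (ENSMUSG00000019982), also in the 3' untranslated region, with 108 fragments and a fold of 51.7 (42.5 to 62.4). It ranked 70 among all summits and 30 among those in 3' untranslated regions, and the gene ranked 67. Its neighbours were Arpc4 at 51.7 and Scand1 at 51.3, both in coding sequence. The folds of Spi1 and Myb differed by a ratio of 1.04, well inside their counting intervals, so no order between them can be read.

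Gata1 stood a step lower. Its summit at nt 1732 of ENSMUST00000033502 (ENSMUSG00000031162), in the 3' untranslated region, had 66 fragments and a fold of 31.8 (24.7 to 40.3). The summit ranked 218, or 100 among 3' untranslated summits, and the gene ranked 195, between Oxa1l in coding sequence and Reep4 in the 3' untranslated region, both at the same fold. The ratio of Myb to Gata1 was 1.63, and the intervals of these summits did not overlap.

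The MYC paralogs had the lowest folds of the 5 genes. Mycn had a summit at nt 2532 of ENSMUST00000043396 (ENSMUSG00000037169), in the 3' untranslated region, with 48 fragments and a fold of 23.3 (17.3 to 30.7). It ranked 366 among all summits and 170 among 3' untranslated summits, and the gene ranked 318, between Rsu1 at 23.3 and Pfkl at 22.8, both in 3' untranslated regions. The interval of Mycn overlapped that of Gata1, with a ratio of Gata1 to Mycn of 1.37.

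Myc (ENSMUSG00000022346) was the only one of the 5 genes with more than 1 listed summit and the only one with a summit in coding sequence. The 3' untranslated summit, at nt 1943 of ENSMUST00000159327, had 32 fragments and a fold of 15.7 (10.9 to 21.9). The coding summit, at nt 731 of ENSMUST00000167731, had 23 fragments and a fold of 11.4 (7.40 to 16.9), which equals the median of the whole list. They ranked 654 and 929 among all summits, and 305 of 843 and 415 of 900 within their regions. The gene ranked 558, beside Atp6v1a and Hnrnpf, both with summits of the same fold in 5' untranslated regions. The Myc summits had overlapping intervals, as did the 3' untranslated summits of Mycn and Myc, with a ratio of Mycn to Myc of 1.48. Spi1 exceeded the 3' untranslated summit of Myc by a ratio of 3.42, with intervals that did not overlap.

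**Figure D1:**
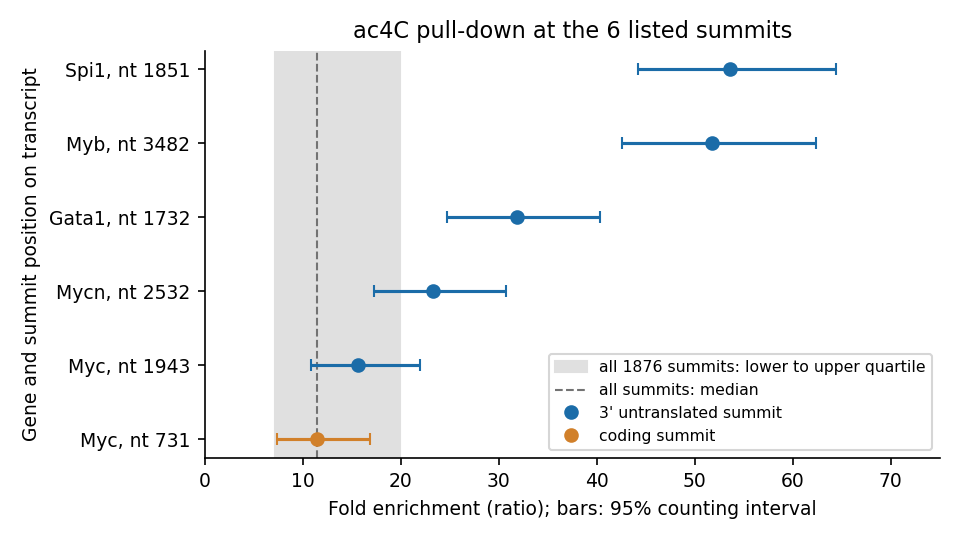
Fold enrichment (x axis, a ratio) of the 6 listed summits of the 5 genes, each labelled by gene and position on its transcript, with exact Poisson 95% intervals of the fragment number as bars, blue for 3' untranslated and orange for coding summits. Spi1 and Myb stand at 53.6 and 51.7, while both Myc summits lie inside the grey band between the quartiles of all 1876 summits.

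The Myc summits lay on different transcripts, and reads shared by isoforms can be split among them, so the distance between the sites is not known and each height can be a part of the gene's signal. Summits in both coding sequence and 3' untranslated region were listed for 102 genes, or 6.87% of the 1485. In 65 of those 102, or 63.7%, the highest 3' untranslated summit was the taller. The ratio of 3' untranslated to coding fold was 1.38 for Myc against a median of 1.22 (quartiles 0.768 and 2.05) over these genes. Myc thus lay inside the middle of this group.

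Set against the whole list, 4 of the 5 genes lay above its upper quartile. The median highest fold of the 5 genes was 31.8, against 12.3 for the other 1480. Summits of Spi1, Myb, Gata1 and Mycn were above the upper quartile of all summits, 19.9, and the Myc summits were between that and the median of 11.4 or at the median. At or above the fold of Spi1 lay 3.46% of all summits, at or above Gata1 11.9%, at or above Mycn 20.1% and at or above the taller Myc summit 36.1%. The genes were picked with these folds known, so this is a description of them with no test.

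**Figure D2:**
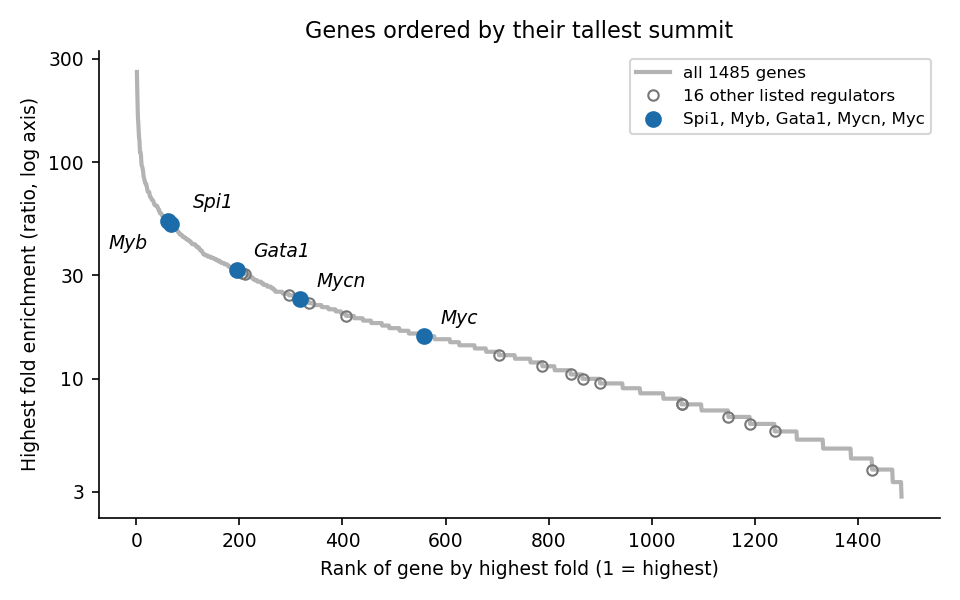
Highest fold of each of the 1485 genes (y axis, log scale) against its rank (x axis), with the 5 genes in blue and 16 other listed regulators as open circles. Spi1 at rank 61 and Myb at rank 67 lie on the steep part of the curve, and Myc at rank 558 lies on the flatter part.

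The summits of these genes fell mostly in 3' untranslated regions. This was so for 5 of their 6 summits, or 83.3% (exact Clopper-Pearson 95% interval 35.9% to 99.6%), against 44.9% of all summits. The sixth was the coding summit of Myc, and no summit of these genes was listed in a 5' untranslated region. With the strongest summit of each gene, all 5 genes were in the 3' untranslated region, against 46.6% of all genes. The interval reaches below the share of the whole list, and the region was known when the genes were chosen, so the difference was not tested.

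Across the list the 3' untranslated share was somewhat lower among the lowest folds. It was 40.5% below the lower quartile of the folds, 43.9% between that and the median, 48.8% between the median and the upper quartile, and 46.3% from the upper quartile on. The tallest of these sets, which holds the summits of Spi1, Myb, Gata1 and Mycn, had 220 of 475 summits in 3' untranslated regions. Region lengths in the transcripts of these cells were not used here, so none of these shares is an enrichment over sequence content.

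**Figure D3:**
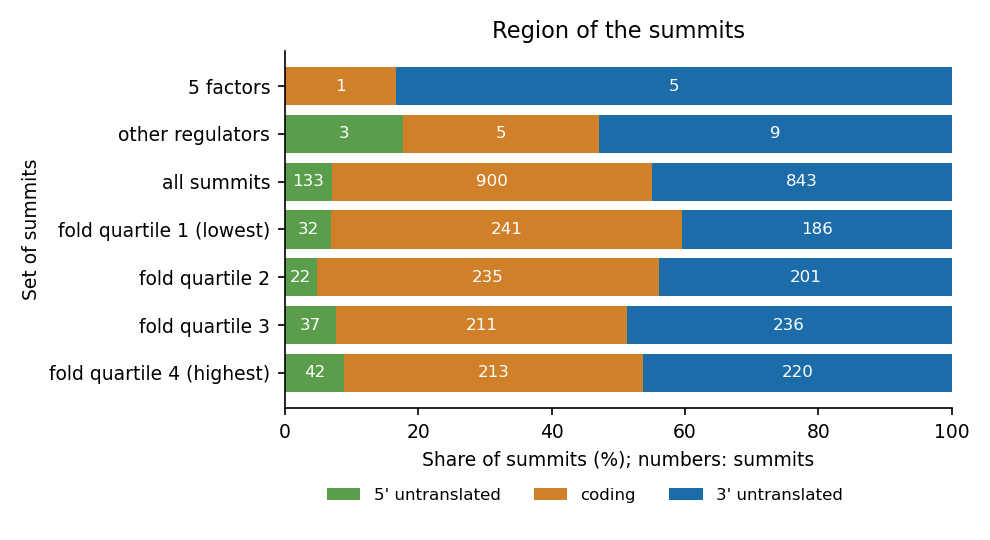
Share of summits (x axis, percent) in 5' untranslated, coding and 3' untranslated regions for the 5 factors, for the other regulators in the lists, for all summits and for all summits split at the quartiles of the folds, with the number of summits printed in each bar. The 5 factors have 5 of 6 summits in 3' untranslated regions, and the sets of all summits split by fold range from 40.5% to 48.8%.

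Within the 3' untranslated summits, these genes took no extreme place along the transcript. Distances from the transcript start ran from nt 1732 in Gata1 to nt 3482 in Myb, against a median of nt 2236 and quartiles of 1455 and 3510 for all 843. All 5 positions lay between those quartiles. The highest of the 5 folds, on Spi1, and that of Gata1 lay near each other in distance, at nt 1851 and 1732. Length of the transcripts was not used here, so how far these summits lay from the stop codon or the poly(A) tail is unknown.

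**Figure D4:**
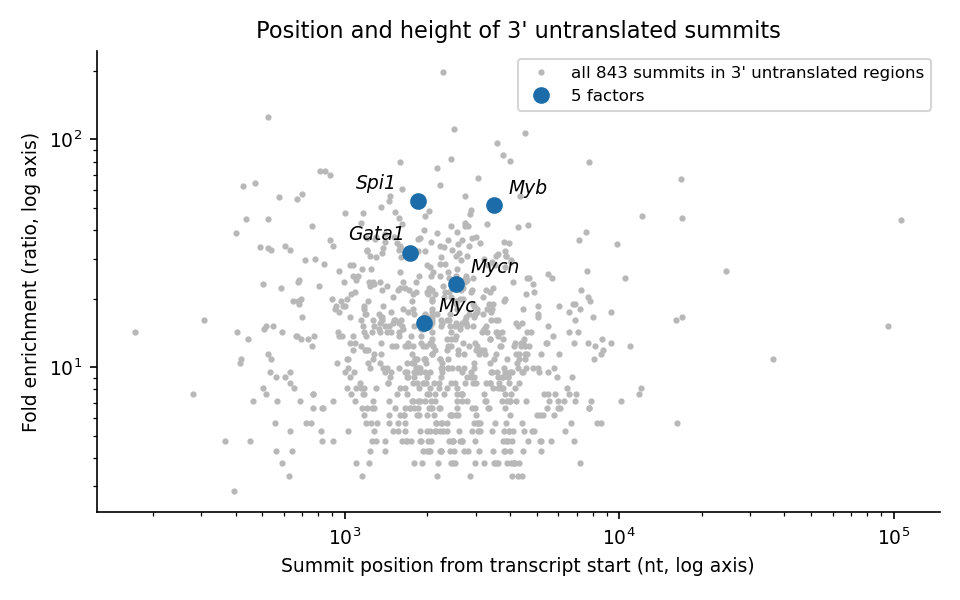
Fold enrichment (y axis, log scale) against distance of the summit from the transcript start (x axis, nt, log scale) for the 843 summits in 3' untranslated regions, with those of the 5 factors in blue. The blue points span nt 1732 to 3482, inside the dense middle of the cloud, and reach from a fold of 15.7 to 53.6.

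The form of the peaks was not itself used to choose the genes, though in the list it went with the folds, which were known. The authors' peak caller splits a wide peak into several summits and letters them, and in all 52 neighbouring pairs in the list that could be compared, the later letter lay farther from the transcript start. The 3' untranslated summits of Spi1, Mycn and Myc were each the fourth of their peak, and the Myb summit and the coding Myc summit were the third. Gata1 was the exception, with a peak that was not split. So 5 of 6 summits were the third or a later summit of their peak. The share was 6.66% of all summits and 4.56% of all coding summits. It was 23.8% of the 315 summits of 3' untranslated regions at or above the fold of the 3' untranslated Myc summit. That set leaves out the coding Myc summit, so the 5 of 6 cannot be set directly against it. Of these genes' 3' untranslated summits, all but that of Gata1 were so lettered.

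These peaks thus extended over several local maxima nearer the transcript start. Their letters imply 13 such earlier summits on the Spi1, Myb, Mycn and Myc transcripts, and 0 of them were listed. This was usual in the list, where 105 of the 125 summits lettered as the third or later, or 84.0%, had no earlier summit of the same peak listed. Lettering also went with height. Summits lettered as the third or later had a median fold of 30.9 against 10.9 for the rest. The lettering of these genes is thus not independent of the folds known when they were chosen. Whether the height of these genes' summits goes with the width of their peaks was not tested.

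Of the wider families and partners of these factors, a minority was listed. Across 8 lists of family members, partners and lineage factors there were 144 regulators besides the 5 genes, and 16, or 11.1% (6.49% to 17.4%), had a summit, against 6.71% of protein-coding genes. Their median highest fold was 10.2, and 9 of their 17 summits, or 52.9% (27.8% to 77.0%), were in 3' untranslated regions, against 44.9% of all summits. Spi1, Myb and Gata1 had the 3 highest folds of the 21 regulators with a summit, Mycn ranked 7 and Myc 10. No expression values were used here, so a regulator without a summit can be one these cells do not make.

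In the MYC network, 4 of the 23 genes other than Myc and Mycn had a summit, or 17.4% (4.95% to 38.8%). This interval takes in the 6.71% of protein-coding genes. Mxd4, which encodes a MAX partner that opposes MYC, had a 3' untranslated summit of 30.4 (23.5 to 38.7), a higher fold than those of both paralogs. The interval of Mxd4 overlapped that of Mycn (17.3 to 30.7) but not those of the Myc summits. Mxd3, a relative of Mxd4, was near the bottom of the list at 3.80, also in the 3' untranslated region. Huwe1, a ubiquitin ligase gene, had a coding summit of 10.4, and Mlx, which encodes a MAX-like protein, a coding summit of 7.59. Max itself, Mycl and the MYC ligase gene Fbxw7 were among the genes with no listed summit; these 3 were chosen after the list was seen.

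Around Spi1, 1 of the 20 other genes of the ETS family had a summit, or 5%, against 6.71% of protein-coding genes. This was Gabpa, at 6.17 in the 5' untranslated region. Of 28 myeloid factors besides Spi1, 2, or 7.14%, had one. They were the C/EBP genes Cebpg, at 30.9 in the 3' untranslated region, and Cebpd, at 19.5 in coding sequence. The fold of Cebpg was close to that of Gata1.

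Around Gata1, 3 of the 18 other genes of the GATA family and its DNA-bound complex had a summit. This was 16.7% (3.58% to 41.4%), against 6.71% of protein-coding genes. Cbfa2t3, which encodes the corepressor ETO2, had a 3' untranslated summit of 22.3 and a coding summit of 5.22. Lyl1, a helix-loop-helix factor gene, and Ldb1, the gene of the bridging protein of the complex, had 5' untranslated summits of 11.4 and 9.49. Gata1, itself chosen as a listed gene, was the only one of the 6 GATA genes with a listed summit. The other GATA genes are too few to set against the share of protein-coding genes. Among erythroid and megakaryocyte factors other than Gata1, 2 of 13, or 15.4% (1.92% to 45.4%), had a summit, an interval that takes in the 6.71%. They were Ldb1 and Mafg, and Mafg, a small MAF gene, reached 24.2 in its 3' untranslated region.

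Around Myb, 1 of the 12 other genes of its family and partners had a summit. This was Kmt2a, which encodes a histone methyltransferase, at 5.70 in the 3' untranslated region. Of 23 stem and progenitor factors besides Myb and Mycn, 3 had one: Lyl1, Ikzf2 at 10.0 in the 3' untranslated region, and Cbfb at 6.65 in coding sequence. Lymphoid factors had 2 of 21, Bcl11b at 12.8 and Foxo1 at 7.59, both in 3' untranslated regions. The exact 95% intervals of these shares took in the 6.71% of protein-coding genes.

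Known targets of the factors were listed at differing shares. The target lists were chosen with earlier results of these data known. The 6.71% of protein-coding genes with a summit includes genes these cells may not make, so no excess over it was tested. Targets of PU.1 had a summit on 10 of 34 genes, or 29.4% (15.1% to 47.5%), led by the Fc receptor gene Fcgr2b at 111.1, the tetraspanin gene Cd53 at 69.8, Fcer1g at 44.6 and Laptm5 at 26.6, all in 3' untranslated regions. The lowest was the granule protease gene Prtn3, at 4.27 in coding sequence. Of the 13 summits on PU.1 targets, 8, or 61.5% (31.6% to 86.1%), were in 3' untranslated regions, against 44.9% of all summits.

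Targets of MYC had a summit on 8 of 36 genes, or 22.2% (10.1% to 39.2%). Pkm, a glycolytic enzyme gene, had 198.4 in its 3' untranslated region and 14.2 in coding sequence, and the amino acid transporter gene Slc7a5 had 41.8 and 38.9 in the same regions. Mcm7, of the replicative helicase, had 26.6 in coding sequence, Ccnd2, a cyclin gene, 20.9 in the 3' untranslated region, and Hk2, a hexokinase gene, was lowest at 5.70. Of the 15 summits on these 8 genes, 4, or 26.7% (7.79% to 55.1%), were in 3' untranslated regions, an interval that takes in the 44.9% of all summits.

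Targets of GATA1 had a summit on 3 of 34 genes, or 8.82% (1.86% to 23.7%), near the share of protein-coding genes at large. They were Pf4, a platelet chemokine gene, at 125.3, the globin gene Hba-a1 at 41.8, whose reads can be shared with the almost identical Hba-a2, and the survival gene Bcl2l1 at 9.02. Targets of MYB other than Myc had a summit on 2 of 20 genes, or 10% (1.23% to 31.7%). This interval takes in the 6.71% of protein-coding genes. The 2 were Cdk1 at 32.8 in the 5' untranslated region and Ccne1 at 12.3 in the 3' untranslated region, both cell cycle genes. Differences between these lists were not tested.

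**Figure D5:**
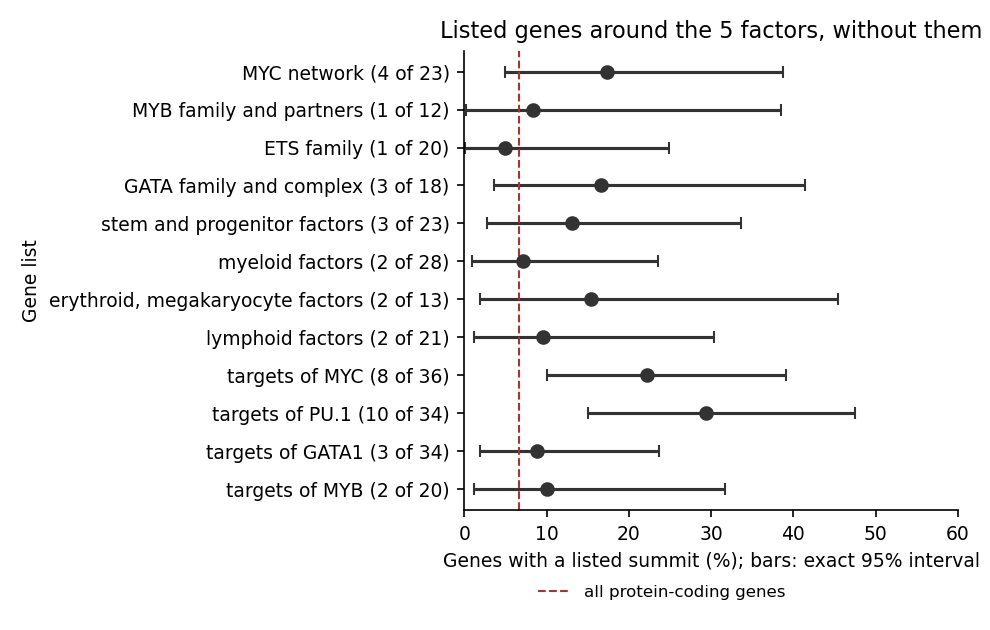
Share of genes with a listed summit (x axis, percent, exact Clopper-Pearson 95% intervals as bars) in 12 lists of families, partners, lineage factors and targets, with the share of all protein-coding genes, 6.71%, as a dashed line. The 5 factors themselves are left out of every list. Targets of PU.1 and of MYC lie above the line with their whole interval, and the intervals of the other 10 lists reach across it. The lists were chosen with earlier results known, and the line includes genes these cells may not make. No difference from the line was tested.

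Markers of several blood lineages were looked up in the list, since the labels call the cells bone marrow lymphoblastocytes. B cell markers had a summit on 0 of 12 genes and T and NK cell markers on 1 of 14, against 6.71% of protein-coding genes. With so few genes, these counts do not tell whether the name in the labels holds. Of 19 myeloid progenitor markers other than Spi1, 5, or 26.3% (9.15% to 51.2%), had a summit, against 6.71% of protein-coding genes. The marker lists were chosen with earlier results of these data known, and this difference was not tested. The 5 markers were Fcer1g at 44.6, Cd47 with 6 summits from 13.8 to 22.8, the cytokine receptor chain gene Csf2rb at 9.02, Tyrobp at 8.07 and Prtn3 at 4.27. The count of 0 allows a share of up to 25% for B cell markers. The 10 mast cell and basophil markers had no listed summit either, which allows up to 30%. The T and NK cell marker was Bcl11b. Erythroid markers had 1 of 9, megakaryocyte 1 of 10 and non-hematopoietic markers 1 of 10, against 6.71% of protein-coding genes. They were, in that order, Hba-a1, Pf4 and the myelin gene Mbp at 6.65. The 10 non-hematopoietic markers do not stand for all such genes. Outside these lists, Shank1 at 160.9 and the olfactory receptor gene Olfr1423 at 96.8, picked after the list was seen, had 3' untranslated summits. Listed markers of the red cell and platelet lineages, where GATA1 acts, were, of those in these lists, Hba-a1 and Pf4.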

How the data were processed

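Per the submitters' processing notes, cutadapt, Bowtie2, MACS2 and the build GRCm39 were used. Versions, parameters, filters and the control for peak calling are not given in the sources used here. In the deposited list, per the file headers, each entry has a fold enrichment (a ratio), the −log10 p-value and −log10 q-value, and the summit position on a transcript. Its regions were used as deposited: in all 162 neighbouring pairs on 1 transcript they ran in 5' to 3' order.

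Fragment numbers were computed from the step of the folds (every fold within 0.01 of a whole multiple; Poisson p-values from these numbers deviated from the deposited −log10 values by at most 0.00044%), a step tested on simulated data. Ranks give ties the best rank. Of 1485 gene symbols 1475 matched a RefSeq gene table of GRCm38.p6, used for names and gene types; 2 of 411 entries in the 20 gene lists were not in it and were left out. The pileup at summits ran from 5 to 548 fragments, with a median of 23; library depth is unknown. Where 0 genes of a list had a summit, the limit given is 3 genes of its total.

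The genes and lists were chosen with earlier results of these data known. No test was run, since the genes were chosen on these values and there is 1 pooled list. Genes named were all 5 factors and the gene just above and just below each by highest fold. From each list, every gene with a summit was named up to 6, otherwise the 4 highest and the 1 lowest. Genes said to be chosen or picked after the list was seen come on top of these. Alternatives were the strongest summit per gene, folds at or above the median, summits within 100 nt counted once, mean folds, 3' untranslated summits alone and ranks by q-value. Python 3.11.15, SciPy 1.17.1 and pandas 2.3.3 were used. Sequences around the summits were not used here.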

Additional observations from a re-analysis of the deposited data

How the results depend on the processing

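No paired analysis was possible because the list is pooled over libraries, and fits without a replicate could not be made either. With the strongest summit per gene, the 3' untranslated share of the 5 factors went to 100%, since the coding summit of Myc drops out by construction. With folds at or above the list's median, that of all summits went to 47.5%, and listed genes, here with the 5 factors, went from 6 to 3 for the MYC network, from 2 to 1 for the MYB family and partners, the ETS family and lymphoid factors, from 5 to 3 for stem and progenitor factors, from 10 to 6 for PU.1 targets, from 10 to 4 for 3' untranslated binding and decay factors, from 6 to 3 for myeloid markers and from 1 to 0 for non-hematopoietic markers, through fewer summits kept. All 6 summits of the 5 factors were kept there. The other 31 alternative values stayed within the interval or spread of the value reported or, for counts, changed by at most 1.5 times. Counting all other summits within 100 nt once, and counting the 6 summits kept, were alternatives chosen after seeing the data. The 6 summits rest on 23 to 112 fragments each.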

Other observations

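Proteins that bind 3' untranslated regions or degrade mRNA, some of them known to act on short-lived mRNAs such as Myc, were also in the list. Of 32 such genes 10 had a summit, or 31.3% (16.1% to 50.0%), against 6.71% of protein-coding genes, and 9 of their 12 summits, or 75% (42.8% to 94.5%), were in 3' untranslated regions, against 44.9% of all summits. The highest was Zfp36l2, which encodes a protein that promotes decay through AU-rich elements, at 45.1 (36.5 to 55.1) in coding sequence. Khsrp, of a decay-promoting KH domain protein, had 35.6 in its 3' untranslated region and 13.8 in coding sequence. Tnrc6a and Ago2, both of the microRNA silencing complex, had 3' untranslated summits of 19.0 and 12.3. The median highest fold of these 10 genes was 8.54, below the 12.3 of all genes. The list was chosen with earlier results of these data known, and the 6.71% includes genes these cells may not make. Neither share was tested.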
